A study of Mus musculus with 20 samples.

Results

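Nrf2, the product of Nfe2l2, is a transcription factor that switches on genes of antioxidant defence, and 10 genes of its pathway were followed through liver regeneration and in hepatocyte organoids. They were the regulators Nfe2l2 and Keap1 and the target genes Nqo1, Gclc, Gclm, Srxn1, Txnrd1, Slc7a11, G6pdx and Gsr, taken by symbol as 10 of the 54532 genes in the deposited table. The 20 RNA libraries, all from C57BL/6 mice, fell into 10 groups of 2. These were undamaged liver, liver at 6, 12, 24, 48 and 72 h and at 7, 14 and 21 d after surgery that took away 70% of the liver (partial hepatectomy, PHx), and Hep-Org, organoids grown from hepatocytes embedded in Matrigel and passaged. The liver libraries were made from freshly isolated hepatocytes, per the growth protocol, and no sample carried a further treatment. The ages of the mice and the number of passages are not given in the labels. Whether both libraries of a group stem from separate mice or cultures is not stated. A p-value here therefore reflects library-to-library spread alone, and how much of that spread lies between mice is not known. The 2 Hep-Org libraries had opposite levels of the sex chromosome genes Xist and Ddx3y. Replicate 1 had 0.001 and 9.90 FPKM and replicate 2 had 25.3 and 0.00756, so they stem from different mice.

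In unstressed cells the Keap1 protein holds Nrf2 in the cytoplasm and passes it to a ubiquitin ligase for degradation. Oxidants and electrophiles modify Keap1, Nrf2 then builds up in the nucleus, pairs with a small Maf protein and binds the antioxidant response element of its target genes. Most of this control acts on the protein, so the transcripts of Nfe2l2 and Keap1 do not measure Nrf2 activity, whereas the transcripts of the targets are its usual readout. In liver the pathway is known for supporting glutathione synthesis, NADPH supply and the detoxification of drugs.

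The antioxidant response element has the core TGACNNNGC, which was searched for on both strands of the RefSeq promoters of build GRCm38.p6, each 300 bases long (250 before and 50 after the start of a transcript). Promoters of 8 of the 10 genes were matched, and those of 5 genes held the core: Nfe2l2, Gclm, Srxn1, Txnrd1 (in 1 of its 3 promoters) and G6pdx. Of all 32851 promoters of this length 12.4% held it, and of all 27025 genes 14.0% had at least 1 such promoter. A match is a description of these letters and not a site of binding. The windows are shown because they set the genes of the results that follow beside the element named for this pathway. Capitals mark the core, and each window is printed 5′ to 3′ on the strand of its gene.
Nfe2l2 (chr2:75704885-75704913, minus strand): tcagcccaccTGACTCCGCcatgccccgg
Gclm (chr3:122245413-122245441, plus strand): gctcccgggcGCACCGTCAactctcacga
Srxn1 (chr2:152105542-152105560, plus strand): gcagtgggcaGCTAGGTCA
Txnrd1 (chr10:82859104-82859132, plus strand): ctggatttttGCTTTGTCAttctgacacg
G6pdx (chrX:74428919-74428947, minus strand): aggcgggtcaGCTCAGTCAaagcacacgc
The core read along the gene in Nfe2l2, where it lay 240 to 232 bases before the start. It read on the opposite strand in Gclm (134 to 126 bases before the start), Txnrd1 (92 to 84) and G6pdx (57 to 49). In Srxn1 it lay within the transcript, at bases 29 to 37. The window of Keap1, Nqo1 and Slc7a11 did not hold these letters, which says nothing of elements farther away.

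Levels are FPKM, fragments per kilobase of exon scaled to 1 size per library, and they can be compared between genes. Each difference between groups is on the log2(FPKM + 1) scale and comes with its standard error (SE) from a limma fit of all 20 libraries, with p-values adjusted over 13162 tested genes by the Benjamini-Hochberg method. A gene was called where its adjusted p was under 0.05 and its log2 difference at least 1 in size. The depth recovered from the values was 13648000 to 41386000 reads per library. Several libraries stood apart. Undamaged replicate 2 had 20927 FPKM of the acute phase gene Saa1, against 19.9 in replicate 1, so the regrown liver of 14 and 21 d served as a further reference. Regrown liver also varied in Saa1, with 1163 and 227 FPKM at 14 d and 312 and 19.1 at 21 d. Hep-Org replicate 2 and the 6 libraries from 48 h to 7 d had Xist at 13.6 to 25.3 FPKM, whereas every other library had at most 0.137. Ddx3y, a gene of the Y chromosome, was at most 0.00756 FPKM in the libraries with Xist at 13.6 or more. It was at least 9.66 in all others. For every gene below, the times from 48 h to 7 d and this pattern of sex chromosome genes cannot be told apart. Mitochondrial genes took 3.17% (Hep-Org replicate 1) to 40.8% (6 h replicate 2) of the reads.

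The labelled cell type was checked against 10 hepatocyte markers. Their summed level was 23233 to 78245 FPKM in the 18 liver libraries and 4135 and 810 in the 2 Hep-Org libraries. Hnf4a, a transcription factor that defines hepatocytes, was at 43.5 and 37.9 FPKM in Hep-Org, but Cyp2e1 and Cps1, enzymes of mature hepatocytes, were at or below 0.191. The 8 biliary and progenitor markers summed to 4502 and 2800 FPKM in Hep-Org and to 6.14 to 336 in liver, and most of that sum was Spp1 (4416 and 2695). The part of this marker change in the Hep-Org results below was not tested. In all these bulk libraries fewer cells of a type and less RNA per cell cannot be told apart.

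**Figure D1:**
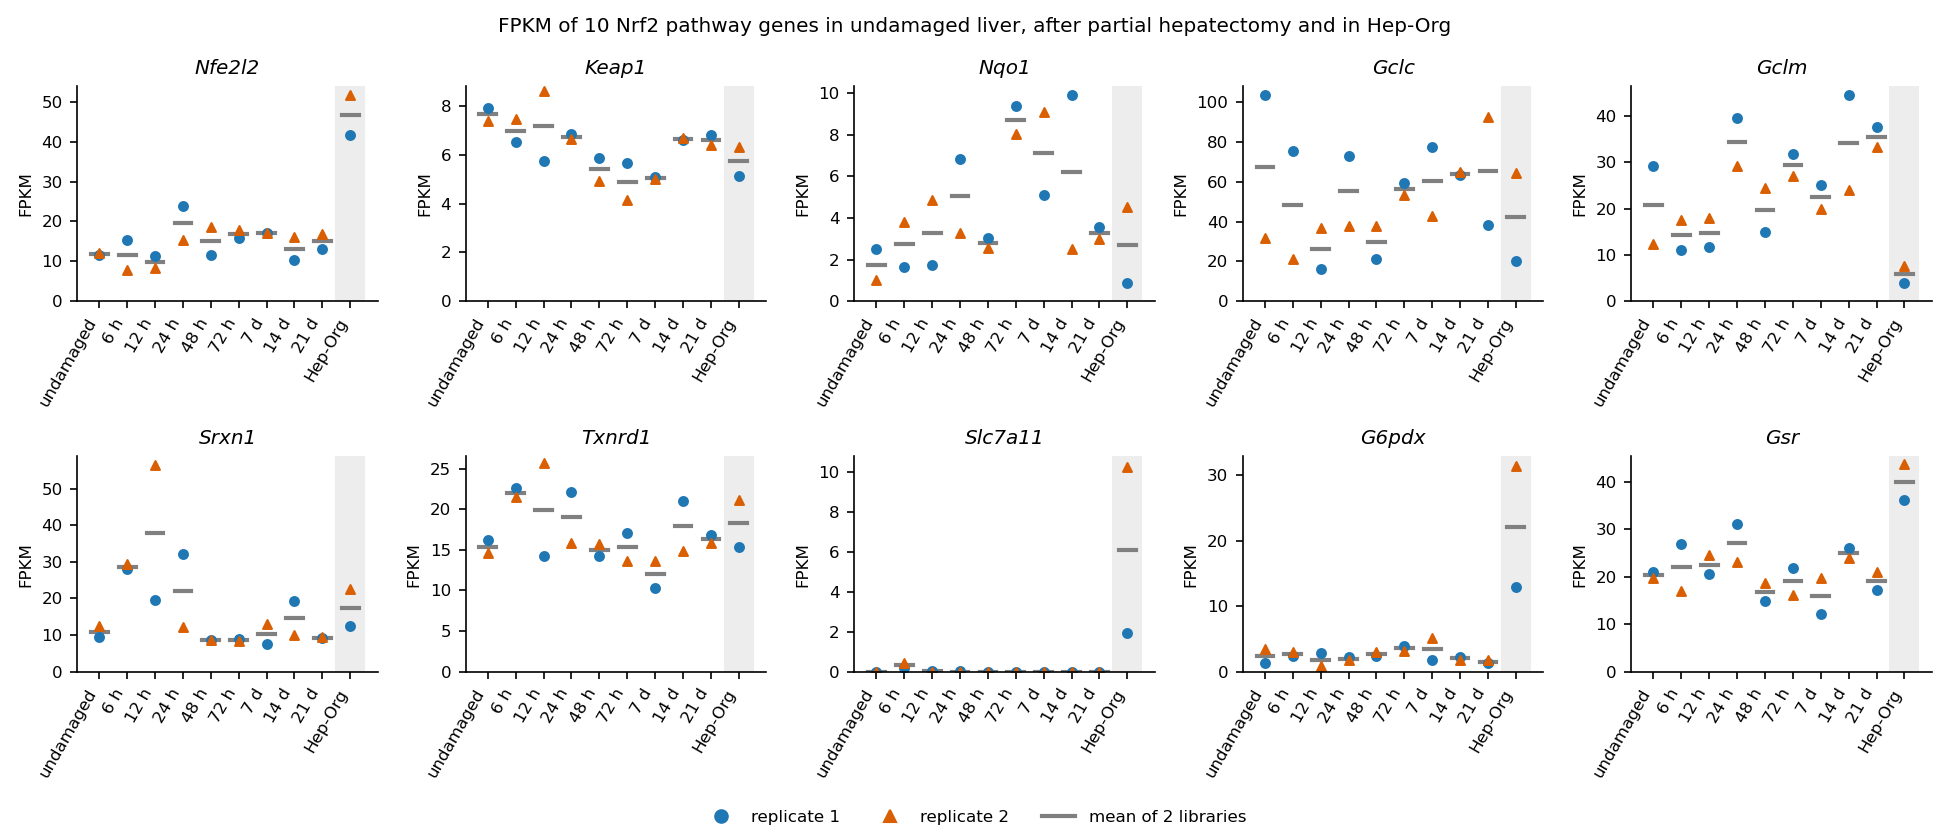
FPKM (linear axis from 0) of each gene in all 20 libraries, by group in order of time with Hep-Org shaded. Circles are replicate 1, triangles replicate 2 and grey lines the mean of both. Nfe2l2, Slc7a11, G6pdx and Gsr have both Hep-Org points above every liver point, and Gclm has both below.

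In Hep-Org some genes of the pathway were higher than in liver and 1 was lower. Against regrown liver, Nfe2l2, Slc7a11 and G6pdx were higher and Gclm was lower, and the other 6 genes were not called. That is 4 of 10 genes, or 3 of 9 without Slc7a11, whose call was bound to the filter on low values as described below. Beside them, 24.8% of all tested genes were called (11.4% higher, 13.4% lower). Against undamaged liver the same 4 genes were called in the same directions, beside 23.5% of all tested genes (10.3% higher, 13.2% lower). The median log2 difference of the 10 genes against regrown liver was 0.30, or 0.073 without Slc7a11, beside -0.02 over all tested genes. Both comparisons share the Hep-Org libraries. Both Hep-Org libraries lay apart from all 18 liver libraries for 5 of 10 genes (4 of 9 without Slc7a11), above them for Nfe2l2, Slc7a11, G6pdx and Gsr and below them for Gclm, beside 30.8% of tested genes in either direction.

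Nfe2l2 (chromosome 2, 75675513 to 75704641, minus strand) encodes the factor itself. Its level in Hep-Org was 41.7 and 51.7 FPKM. Undamaged liver had 11.6 and 12.0, and the regrown libraries had 10.3 and 16.1 at 14 d and 13.2 and 17.0 at 21 d. The highest of all 18 liver libraries was 23.9, in replicate 1 of 24 h, so the groups did not overlap. The log2 difference was 1.66 (SE 0.32, adjusted p = 0.0018, limma) against regrown liver and 1.89 (SE 0.36, adjusted p = 0.0019, limma) against undamaged liver. Within liver the order of the means ran from 24 h (19.7 ± 5.97 FPKM, SD, n = 2) down to 12 h (9.74 ± 2.18), and no neighbours in that order had libraries that stayed apart.

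Keap1 (chromosome 9, 21229730 to 21239361, minus strand) encodes the adaptor that marks Nrf2 for degradation. It was the least variable of the 9 genes detected in every library, with a 2.07-fold range over the 18 liver libraries. Hep-Org had 5.16 and 6.32 FPKM, within the liver range of 4.16 to 8.61. The log2 difference against regrown liver was -0.19 (SE 0.19, adjusted p = 0.48, limma). An antisense gene, Gm16754, overlaps Keap1, and since strandedness is not given in the sources used here the reads of both cannot be told apart.

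The level of Nfe2l2 relative to Keap1 within a library does not depend on how libraries were scaled. The ratio of FPKM was 8.09 and 8.18 in Hep-Org and 1.46 and 1.62 in undamaged liver. Over the 16 PHx libraries it ran from 0.952 (12 h, replicate 2) to 4.26 (72 h, replicate 2) with a median of 2.37. Hep-Org lay above all 18 liver libraries, and the 6 libraries of 48 h to 7 d ranged from 1.97 to 4.26. This ratio was chosen after its values were seen and was given no test.

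**Figure D2:**
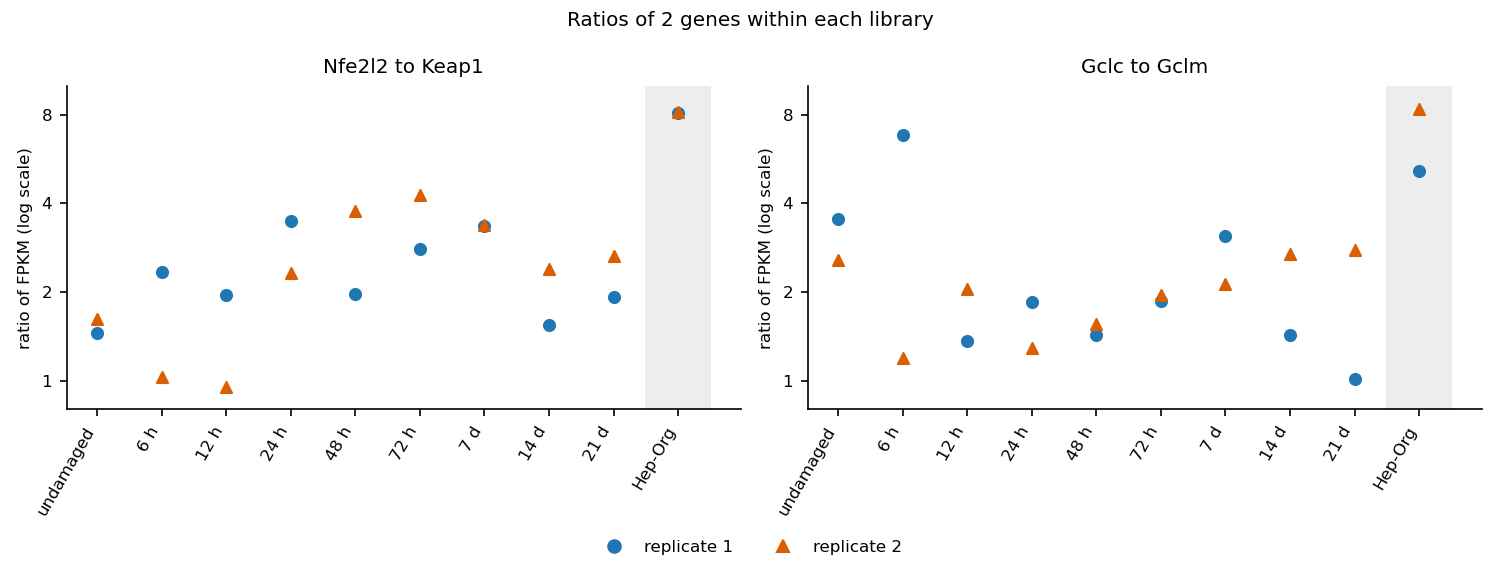
Ratio of FPKM of Nfe2l2 to Keap1 (left) and of Gclc to Gclm (right) in each library, on a log axis, by group with Hep-Org shaded. Both Hep-Org points of the left panel are near 8, above the highest liver value of 4.26, whereas in the right panel 1 library of 6 h at 6.81 lies between the Hep-Org points.

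Glutathione is made by glutamate-cysteine ligase, with the catalytic subunit Gclc and the modifier subunit Gclm, from cysteine that the transporter Slc7a11 helps to import as cystine. These 3 genes behaved differently in Hep-Org. Gclm (chromosome 3, 122245557 to 122270732, plus strand) was at 3.94 and 7.70 FPKM in Hep-Org. Regrown liver had 44.5 and 24.0 at 14 d and 37.6 and 33.4 at 21 d, and undamaged liver had 29.2 and 12.3. The lowest of all liver libraries was 11.1, so Hep-Org lay below each of them. The log2 difference was -2.43 (SE 0.42, adjusted p = 0.00076, limma) against regrown liver and -1.61 (SE 0.46, adjusted p = 0.020, limma) against undamaged liver. The second call was lost without undamaged replicate 1 (-1.02, adjusted p = 0.16) and without Hep-Org replicate 1 (-1.21, adjusted p = 0.17), while leaving out each library in turn kept the first between -2.83 and -2.02. With all libraries rescaled to the same FPKM sum, which moved the median of all genes by 1.34 against undamaged liver, the second turned to 0.13, and the first, at a median of 0.95, was -1.31 (adjusted p = 0.042). Gm17494 and the pseudogene Gm6061 overlap Gclm.

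Gclc (chromosome 9, 77754535 to 77794485, plus strand) varied widely between the libraries of a group. Hep-Org had 20.2 and 64.3 FPKM, and undamaged liver had 104 and 31.6. The log2 difference of Hep-Org against regrown liver was -0.78 (SE 0.71, adjusted p = 0.42, limma). The ratio of Gclc to Gclm was 5.13 and 8.35 in Hep-Org and ran from 1.01 to 6.81 over the 16 PHx libraries with a median of 1.86. The libraries overlapped only through replicate 1 of 6 h, since the next highest PHx value was 3.10.

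Slc7a11 (chromosome 3, 49892526 to 50443614, minus strand) was the gene with the least signal in liver. Hep-Org had 1.92 and 10.3 FPKM, resting on 1170 and 7282 recovered reads. The 2 libraries of 6 h had 0.184 and 0.453 FPKM, from 50 and 169 reads. The other 16 liver libraries together gave 18 reads, of which 10 came from replicate 1 of 12 h, and 8 of these libraries were listed at 0. Slc7a11 passed the filter on low values only through the Hep-Org libraries, so its call was bound to this difference and is no support for it. The fitted log2 differences, 2.53 (SE 0.39) against regrown and 2.52 (SE 0.43) against undamaged liver, are set by the added 1 in log2(FPKM + 1). The 2 libraries of 6 h had more reads than any other liver library. Their log2 difference from regrown liver was 0.39 (SE 0.38, adjusted p = 0.48, limma). With the added 1, levels under 1 FPKM cannot differ by a log2 of 1. A call at 6 h was therefore out of reach, and this test decides nothing. Several pseudogenes and an antisense gene, Gm37854, lie within Slc7a11.

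NADPH keeps glutathione and thioredoxin reduced, and G6pdx encodes glucose-6-phosphate dehydrogenase, which makes it in the first step of the pentose phosphate pathway. G6pdx (chromosome X, 74409483 to 74429194, minus strand) was at 12.9 and 31.4 FPKM in Hep-Org. Regrown liver had 2.31 and 1.74 at 14 d and 1.31 and 1.71 at 21 d, and undamaged liver had 1.39 and 3.43. The highest liver library was 5.15, in replicate 2 of 7 d, and the groups did not overlap. The log2 difference was 2.95 (SE 0.43, adjusted p = 0.00023, limma) against regrown liver and 2.70 (SE 0.48, adjusted p = 0.0011, limma) against undamaged liver. The gene lies on the X chromosome, and the Hep-Org library with the higher value is the one with Xist at 25.3 FPKM. The other had Xist at 0.001 FPKM and still lay above all liver libraries. Ikbkg overlaps G6pdx on the opposite strand.

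Gsr (chromosome 8, 33652523 to 33698163, plus strand), the reductase that returns oxidised glutathione to its reduced form, was at 36.2 and 43.7 FPKM in Hep-Org. The 18 liver libraries ranged from 12.1 to 31.0 with a median of 20.8, so the groups did not overlap. The log2 difference against regrown liver was 0.83 (SE 0.29, adjusted p = 0.040, limma) and against undamaged liver 0.93 (SE 0.32, adjusted p = 0.043, limma). Both passed the adjusted p and stayed under the log2 difference of 1 that a call asked for.

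The remaining targets overlapped between Hep-Org and liver. Srxn1, sulfiredoxin, which repairs overoxidised peroxiredoxins, was at 12.4 and 22.6 FPKM in Hep-Org, and Txnrd1, the cytoplasmic thioredoxin reductase, was at 15.3 and 21.2. Their log2 differences against regrown liver were 0.52 (SE 0.48) and 0.07 (SE 0.29). Nqo1, a quinone reductase widely used as a marker of Nrf2 activity, was at 0.855 and 4.54 FPKM in Hep-Org, with a log2 difference of -0.70 (SE 0.57, adjusted p = 0.36, limma) against regrown liver.

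**Figure D3:**
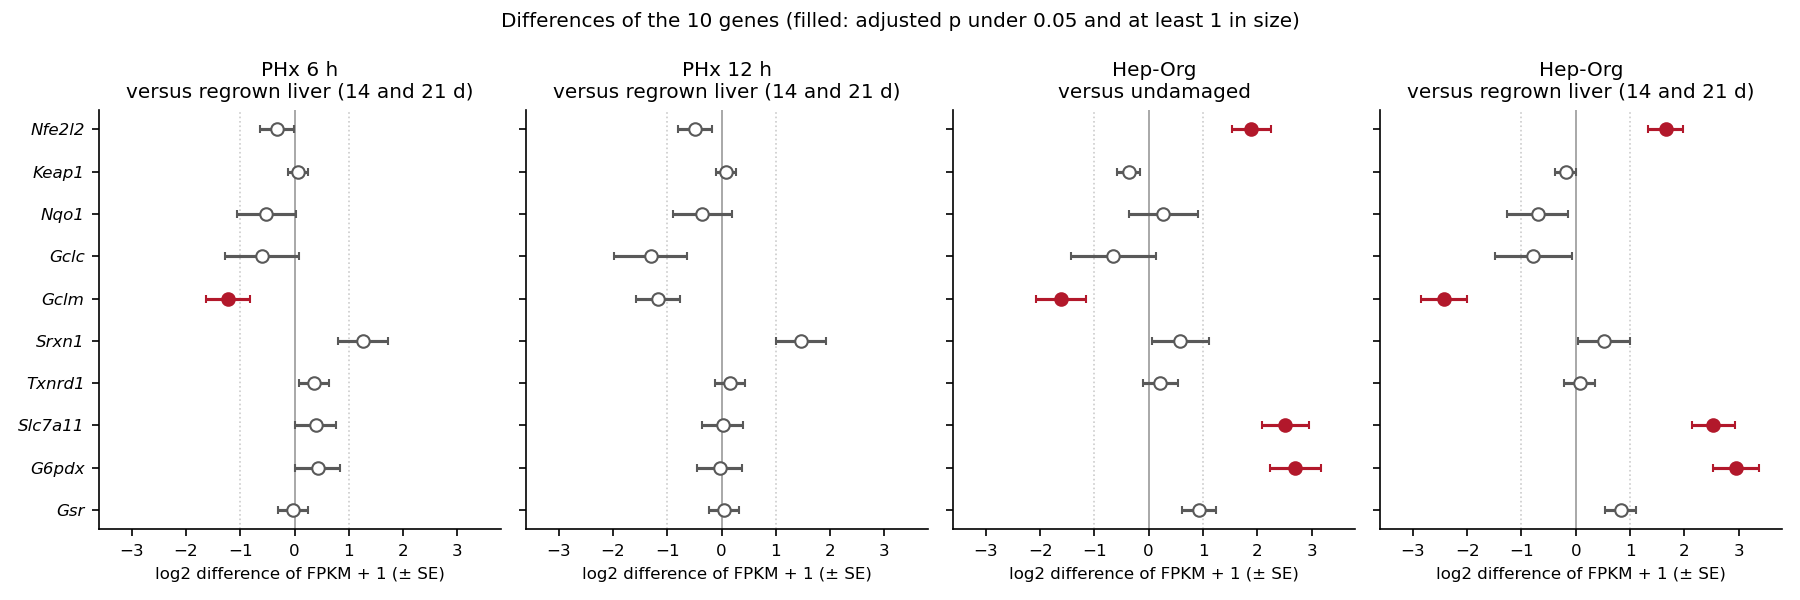
Log2 differences of FPKM + 1 with their SE for the 10 genes in 4 comparisons, with filled points for genes called. In Hep-Org Nfe2l2, Slc7a11 and G6pdx are called to the right and Gclm to the left against both references, and after PHx Gclm at 6 h is the sole filled point.

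The 2 Hep-Org libraries differed in level for the whole pathway. Replicate 2 exceeded replicate 1 for 10 of 10 genes, whereas 43.1% of all tested genes were higher in replicate 2. Slc7a11 was 5.34 times and Nqo1 5.31 times as high in replicate 2, Gclc 3.18 times and G6pdx 2.43 times. Nfe2l2, Keap1 and Gsr differed least, by 1.24, 1.23 and 1.21 times. Replicate 2 was also the library with Xist and with the lower hepatocyte marker sum, and its Alb was at 86.4 FPKM against 3132. Their part in this contrast was not tested. At 24 h the contrast ran the other way, with 0 of 10 genes higher in replicate 2, beside 44.6% of tested genes. In the remaining 8 groups 1 to 7 of the 10 genes were higher in replicate 2.

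After PHx none of the 10 genes was called over the 8 times by the limma F test, beside 9.51% of all tested genes. Srxn1 alone had an unadjusted p under 0.05. Against undamaged liver none was called at any of the 8 times. The share of all tested genes called by limma in those comparisons was 10.9% (6 h), 3.08% (12 h), 0% (24 h), 0.410% (48 h), 0.889% (72 h), 0.425% (7 d) and 0% (14 and 21 d, each). At an unadjusted p under 0.05 there was 1 gene for each of 6 and 12 h, 2 for each of 72 h and 7 d and 0 for the other times. Against regrown liver 1 gene was called at 6 h and was lower, beside 15.9% of tested genes (8.33% higher, 7.54% lower). None was called at 12 h, beside 7.92%, or at 24 h, beside 0.0380%, with 2 genes and 0 genes at an unadjusted p under 0.05. The share of all tested genes at an unadjusted p under 0.05 was not computed in any of these comparisons. The counts of genes at that threshold therefore have no background beside them and show no excess. With 2 libraries per time, a miss of the threshold does not show that a gene stayed level. Slc7a11, at most 0.453 FPKM in liver, was too low to reach a log2 difference of 1 in these comparisons.

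Srxn1 (chromosome 2, 152105516 to 152111376, plus strand) had the clearest course. It was at 27.95 and 29.4 FPKM at 6 h, 19.4 and 56.3 at 12 h and 32.0 and 12.3 at 24 h. Undamaged liver had 9.34 and 12.5, and the libraries of 48 h, 72 h and 7 d ranged from 7.64 to 12.9. Those of 14 d had 19.2 and 9.89, and those of 21 d 9.25 and 9.38. The libraries of 48 h to 7 d are also the liver libraries with Xist, so these times and that pattern cannot be told apart. The 4 libraries of 6 and 12 h were above both undamaged libraries and above the 4 of 14 and 21 d. Between those 4 and 4 libraries, 31.6% of tested genes did not overlap in one direction or the other, and of the 10 genes Srxn1 (above) and Gclm (below) did not.

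The log2 differences of Srxn1 missed the threshold. Against regrown liver they were 1.26 at 6 h (SE 0.46, adjusted p = 0.063, limma) and 1.47 at 12 h (SE 0.46, adjusted p = 0.056, limma). Against undamaged liver they were 1.33 at 6 h (SE 0.55, adjusted p = 0.12, limma) and 1.54 at 12 h (SE 0.55, adjusted p = 0.14, limma). The fitted range over the 8 times was 1.83 with an adjusted p of 0.10 (limma F test). The 2 libraries of 12 h moved these values in opposite directions. Without replicate 1 the range became 2.68 (adjusted p = 0.041, limma F test) and the differences at 12 h 2.32 against regrown and 2.49 against undamaged liver. Without replicate 2 the range became 1.62 (adjusted p = 0.14, limma F test) and these differences 0.61 (adjusted p = 0.53) and 0.79 (adjusted p = 0.51). With all libraries but without the submission term, the differences at 6 and 12 h against regrown liver passed (adjusted p = 0.047 and 0.039). Erythroid markers summed to 7089 and 581 FPKM at 6 h and to 6438 and 136 at 12 h, against 12.4 to 385 in every other liver library, and their part was not tested.

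Gclm was at 11.1 and 17.6 FPKM at 6 h, 11.7 and 18.03 at 12 h and 39.5 and 29.1 at 24 h. It stood at 15.0 and 24.4 (48 h), 31.9 and 27.2 (72 h) and 25.1 and 19.97 (7 d). The 4 libraries of 6 and 12 h lay below the 4 of regrown liver (24.0 to 44.5), but undamaged replicate 2, at 12.3, lay among them. Against regrown liver the log2 difference was -1.22 at 6 h (SE 0.40, adjusted p = 0.044, limma) and -1.17 at 12 h (SE 0.40, adjusted p = 0.076, limma). The first was called and the second was not. The call at 6 h was narrow, since it was lost in 11 of the 20 fits that left out 1 library: each library of 6 h, 24 h, 72 h, 7 d and 21 d and replicate 1 of 14 d. The adjusted p over these 20 fits ran from 0.027 to 0.31, and without replicate 1 of 6 h the difference was -0.86. Against undamaged liver the log2 difference at 6 h was -0.41 (SE 0.48, adjusted p = 0.62, limma).

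Nqo1 (chromosome 8, 107388225 to 107403206, minus strand) was at 9.37 and 8.03 FPKM at 72 h and at 5.12 and 9.09 at 7 d. Undamaged liver had 2.51 and 1.01, resting on 80 and 17 recovered reads. The log2 difference at 72 h was 1.89 (SE 0.65, adjusted p = 0.15, limma). The libraries of 72 h and 7 d had Xist and the undamaged ones did not, so these times and that pattern cannot be told apart. Its 16 PHx libraries ranged from 1.65 to 9.88 FPKM. The highest of them was replicate 1 of 14 d, whose partner had 2.51.

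Keap1 stood at 5.90 and 4.93 FPKM (48 h), 5.66 and 4.16 (72 h) and 5.08 and 5.03 (7 d). The other 10 PHx libraries ranged from 5.76 to 8.61, and the overlap was confined to replicate 1 of 48 h and replicate 1 of 12 h. The log2 difference at 72 h against undamaged liver, which had 7.95 and 7.40, was -0.56 (SE 0.22, adjusted p = 0.20, limma). The 6 libraries of 48 h to 7 d are also those with Xist, so these times and that pattern cannot be told apart.

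Gclc, Txnrd1, G6pdx, Gsr and Nfe2l2 did not pass the test over the times. Gclc ran from 15.9 to 92.5 FPKM over the 16 PHx libraries, and its 2 libraries of 6 h had 75.7 and 21.2. Txnrd1 (chromosome 10, 82833951 to 82897712, plus strand) was highest in mean at 6 h (22.0 ± 0.766 FPKM, SD, n = 2) and lowest at 7 d (12.0 ± 2.33), with an adjusted p of 0.55 over the times (limma F test). G6pdx ran from 0.883 to 5.15 FPKM and Gsr from 12.1 to 31.0. The adjusted p over the times was 0.74 for G6pdx, 0.53 for Gsr and 0.47 for Nfe2l2 (limma F test).

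After PHx the levels of the 10 genes did not all move together. Over the 16 PHx libraries the correlation of log2 values was above 0 in 25 of 45 gene pairs, with a median r of 0.026, and over 0.5 in 9. It was highest for Srxn1 and Txnrd1 (r = 0.83), Keap1 and Txnrd1 (0.76) and Txnrd1 and Gsr (0.71). It was lowest for Keap1 and G6pdx (-0.62) and for Nfe2l2 and Keap1 (-0.55). The libraries share times, depth and submission, so these values describe the libraries and carry no test. The same counts over all pairs of tested genes were not made. The genes most like each member over the same libraries were Anxa5 for Nfe2l2 beside a mitochondrial tRNA gene (r = 0.88 and 0.90), Iscu for Keap1 (0.92), Fcgr1 for Nqo1 (0.80) and Abhd17c for Gclc (0.83). They were Plscr2 and Esd for Gclm (both 0.94), Mapkapk2 for Srxn1 (0.93), Lurap1l for Txnrd1 (0.88), Rgs19 for G6pdx (0.90) and Ddx1 for Gsr (0.86). Rgcc led for Slc7a11 (0.98), whose values are near 0 in all but the 6 h libraries.

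Related genes were counted in 8 lists, read beside 24.8% of all tested genes called in Hep-Org against regrown liver and 15.9% at 6 h. Other measures also differed at 6 h. Hepatocyte markers summed to 23233 and 38226 FPKM, against 42886 to 78245 in regrown liver. The 10 neutrophil markers summed to 819 and 109, against 2.95 to 78.7, and mitochondrial genes took 20.9% and 40.8% of the reads, against 4.13% to 8.41%. Their part in the counts at 6 h was not tested. The glutathione S-transferases, which attach glutathione to drugs and lipid products, were mostly lower in Hep-Org. Of 17 tested, 10 were lower and 1 higher, and the median log2 difference was -2.57 beside -0.02 over all genes. Gstz1 was at 3.07 and 3.21 FPKM in Hep-Org and at 91.1 to 121 in regrown liver, with a log2 difference of -4.60 (SE 0.32). Mgst1 differed by -4.08 (SE 0.50) and Gstm4 by -2.82 (SE 0.45). The gene higher in Hep-Org was Gsta1, with a mean of 25.2 ± 17.2 FPKM (SD, n = 2), although replicate 1 of 24 h had 37.5. At 6 h after PHx 4 were lower than in regrown liver, among them Gstm4 (-2.26, SE 0.44) and Gsta3 (-3.31, SE 0.70), and 1 was higher. Against undamaged liver 1 was higher and 0 were lower at 6 h, with a median log2 difference of -0.31. In Hep-Org 1 was higher and 5 were lower than in undamaged liver. Several of these genes are close paralogs, between which reads may have been split.

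The list of NADPH-producing enzymes held calls in both directions in Hep-Org. Of 8 tested, Pgd and Tkt were higher. Pgd makes NADPH in the pentose phosphate pathway like G6pdx, whereas Tkt, transketolase, belongs to the branch of that pathway that makes none. Lower were Idh1 and Mthfd1, which make NADPH outside it. Pgd was at 19.3 and 31.4 FPKM in Hep-Org and at 5.63 to 8.14 in regrown liver, with a log2 difference of 1.74 (SE 0.29, adjusted p = 0.00064, limma). Idh1 differed by -1.97 (SE 0.41, adjusted p = 0.0029, limma) and Mthfd1 by -1.64 (SE 0.45, adjusted p = 0.013, limma). At 6 h after PHx 4 of the 8 were lower than in regrown liver and none was higher, led by Mthfd1 (-2.31, SE 0.43), Idh1 (-1.49, SE 0.40) and Idh2 (-1.26, SE 0.35).

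Detoxification and export genes also gave calls in both directions. Of 17 tested, 5 were higher and 5 lower in Hep-Org than in regrown liver. Abcc4 and Abcc1, exporters of conjugates, differed by 3.796 (SE 0.28) and 2.21 (SE 0.21). Abcc1, counted among the 5 higher, passed the filter on low values only through Hep-Org, so its call is no support. Ces1g, a carboxylesterase of hepatocytes, was listed at 0 and 0.0164 FPKM in Hep-Org and was at 102 to 144 in regrown liver. At 6 h after PHx 5 were lower and none higher. Nqo2 differed by -2.56 (SE 0.40), Ces1g by -2.28 (SE 0.37) and Osgin1, an oxidative stress response gene, by -2.10 (SE 0.41). Osgin1 was at 28.8 and 29.8 FPKM at 6 h and 6.14 and 10.9 at 12 h, while regrown liver had 100 to 202.

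Genes of glutathione use gave 1 higher and 3 lower of 11 tested in Hep-Org, and the thioredoxin and peroxiredoxin list 1 higher and 3 lower of 14. Gpx2, a peroxidase known from epithelia of the gut, was at 3.75 and 5.15 FPKM in Hep-Org and at most 0.382 in any liver library. It was the 1 higher gene of its list and passed the filter on low values only through Hep-Org, so its call is no support, as holds for Abcc1 and Phgdh in the other lists. Gpx1, the common form, differed by -2.65 (SE 0.45). Chac2, which degrades glutathione, differed by -2.07 (SE 0.43). Sesn2, a stress-induced sestrin, differed by 2.65 (SE 0.22), Prdx4, a peroxiredoxin of the endoplasmic reticulum, by -2.36 (SE 0.39) and Sesn1 by -1.10 (SE 0.26). At 6 h after PHx the counts were 1 higher and 2 lower of 11, and 1 higher and 3 lower of 14. Chac2 (-2.36, SE 0.41) was lower and Gpx3 (2.65, SE 0.70) higher, and the peroxiredoxins Prdx1 (-1.78, SE 0.31), Prdx3 (-1.45, SE 0.28) and Prdx6 (-1.55, SE 0.43) were lower.

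Of 11 tested genes in the list of Nrf2 regulators, 2 were higher in Hep-Org and none was lower. Maff, a small Maf partner, was at 9.87 and 9.34 FPKM against 0.461 to 1.85 in regrown liver (log2 difference 2.26, SE 0.36). Tnfaip3, a feedback inhibitor of NF-kB rather than an established regulator of Nrf2, differed by 2.73 (SE 0.46). Maff was also the 1 gene of this list called at 6 h after PHx, at 3.50 and 3.51 FPKM (1.05, SE 0.34, adjusted p = 0.043, limma). In the heme, iron and superoxide list 6 of 12 were lower in Hep-Org and none higher, among them catalase, Fech, the last enzyme of heme synthesis (-1.72, SE 0.29), and Sod3, the extracellular superoxide dismutase (-2.76, SE 0.47). At 6 h 2 were lower and 1, Mt2, higher.

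Slc7a11 is also a target of Atf4, the factor of the amino acid stress response, so that list was counted too. In Hep-Org 2 of 12 tested were higher and 3 lower. Phgdh and Psat1, enzymes of serine synthesis, differed by 5.82 (SE 0.32) and 4.67 (SE 0.30), and Cbs, which leads from homocysteine towards cysteine, by -4.29 (SE 0.46). Phgdh, counted among the 2 higher, passed the filter on low values only through Hep-Org, so its call is no support. Atf4 itself was at 47.8 and 35.6 FPKM in Hep-Org, within the liver range. At 6 h after PHx Atf4 (1.47, SE 0.35) and Ddit3 (2.17, SE 0.50), a stress factor downstream of it, were higher than in regrown liver. In that comparison 2 genes of the list were lower. Against undamaged liver 0 of the 12 were called at 6 h, and 4 were higher and 3 lower in Hep-Org. A part of Atf4 in the levels of Slc7a11 was not tested.

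List counts depended on the reference. Against undamaged liver, 10.9% of all tested genes were called at 6 h and 23.5% in Hep-Org. At 6 h thioredoxins and peroxiredoxins gave 1 higher and 0 lower, NADPH-producing enzymes 0 and 1, and heme, iron and superoxide 0 and 0. Glutathione use gave 2 and 1, and detoxification and export 0 and 4. In Hep-Org these lists, in that order, gave 1 and 1, 3 and 1, 0 and 2, 1 and 2, and 5 and 3. Nrf2 regulators kept their counts. Rescaling by the median ratio between libraries left the counts in Hep-Org against regrown liver as they were in 7 of the 8 lists, and gave 4 higher and 4 lower detoxification and export genes. With every library rescaled to the same FPKM sum instead, 53.7% of all tested genes were called (6006 higher and 1059 lower of 13162). Hep-Org against regrown liver gave 3 higher and 6 lower glutathione S-transferases, 4 and 0 NADPH-producing enzymes, 6 and 1 detoxification and export genes, and 2 and 2 genes of heme, iron and superoxide. The counts became 4 and 1 for glutathione synthesis and use, 5 and 1 for thioredoxins and peroxiredoxins, 9 and 0 for Nrf2 regulators and 6 and 2 for Atf4 targets. At 6 h no gene of the 8 lists was then called higher, beside 405 higher and 1708 lower of all tested genes. Relative to the median of all genes the glutathione S-transferases stood at -2.41 in Hep-Org under that scaling.

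**Figure D4:**
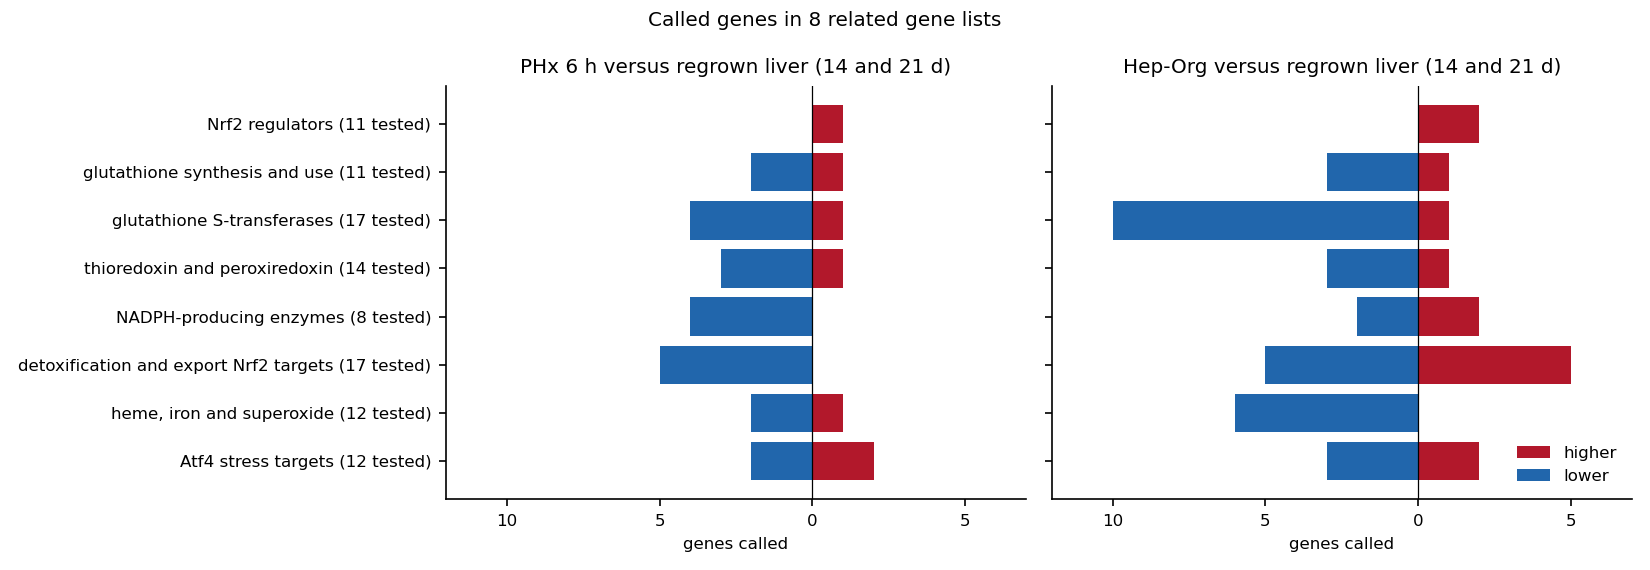
Number of genes called higher (red, to the right) and lower (blue, to the left) in 8 lists of related genes, at 6 h after PHx (left) and in Hep-Org (right), both against regrown liver. The longest bar is the 10 glutathione S-transferases lower in Hep-Org, and at 6 h no NADPH or detoxification gene is called higher. The bars for higher genes in Hep-Org include Gpx2, Abcc1 and Phgdh, which passed the filter on low values only through Hep-Org.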

How the data were processed

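RNA was sequenced in 20 libraries. The table holds FPKM as deposited by the authors, from HISAT2 2.0.5 alignments to mm10 according to the submitters' processing notes. For the counter, annotation, strandedness and between-library scaling, the method is not given in the sources used here. All 20 columns were used; that of undamaged replicate 1 differs by its last letter from the library name in the labels. Symbols, positions (GRCm38) and exon lengths came from GENCODE M21. Multiplied by exon length, 97.9% to 98.7% of each library's low values (at most 20 reads) came out whole within 0.05 reads, which gave read numbers.

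A gene was tested if 2 or more libraries reached 1 FPKM. The scale was log2(FPKM + 1), which understates changes of low genes, and the fit was limma 3.58.1 in R 4.3.3 (trend and robust). The model held a mean for each group plus submission, since the growth protocol of replicate 2 of each PHx time (8 libraries) differs from that of the other 12 and the series text speaks of a second submission. It left 9 residual and 3.29 prior degrees of freedom. The procedure was tested on simulated data, in comparisons with undamaged liver. Independent normal noise was drawn around the same mean of a gene in all libraries, without a submission effect. Raised genes had a mean log2(FPKM + 1) over 2, so the shares below do not cover lower genes such as Slc7a11. Of genes raised by a log2 of 1.5, 37.8% were called at 6 h and 39.8% in Hep-Org (means of 3 draws). Of genes raised by 3, the shares were 85.2% and 87.8%. Most changes of 1.5 were thus missed in this simulation. The members, the gene lists and the comparisons were chosen with earlier results of these data known. Named genes were the 10 members, up to 3 genes per list with the largest t among those called, and the nearest genes by correlation; further genes were named after their values were seen. Alternatives were the model term, pseudocount, filter, scaling and leaving out each library; the list counts under other scalings were added after seeing the data. Python 3.11.15, numpy 2.4.6, pandas 2.3.3 and matplotlib 3.10.9 made summaries and figures.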

Additional observations from a re-analysis of the deposited data

How the results depend on the processing

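The number of the 10 genes called was recomputed under the alternatives for all 14 comparisons. It changed in 5 of them. At 6 h against regrown liver it was 1, became 2 with no replicate block (no submission term) and 0 with no filter on low values, and ranged from 0 to 2 over the fits without 1 library. At 12 h it was 0, became 1 with no replicate block, and ranged from 0 to 1. For Hep-Org it was 4 and became 8 against undamaged and 7 against regrown liver when libraries were rescaled to the same FPKM sum, where 63.0% and 53.7% of all tested genes were called; without 1 library it ranged from 3 to 4 against undamaged and stayed at 4 against regrown liver. The time course had 0, and 1 without replicate 1 of 12 h. A replicate block by the number of the labels in place of submission changed none of these counts: same-numbered libraries did not deviate together (r from -0.381 to 0.472 over 28 pairs of times, over 0.1 in 4), so the numbers were not taken as pairs. Within the PHx times number and submission coincide.

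Rescaling to the same FPKM sum moved the median of all tested genes by 1.34 against undamaged and 0.95 against regrown liver in Hep-Org. Under it Gclm in Hep-Org became 0.13 against undamaged liver (-1.21 relative to that median), Keap1 became 1.36 and 0.96, Gclc 1.25 and 0.45, Nqo1 0.23 against regrown liver, and Keap1 at 72 h 0.14. Nfe2l2 and G6pdx stayed higher relative to the median, by 1.98 and 3.31 against regrown liver. Over all genes the calls in Hep-Org went from 1352 higher and 1743 lower to 7570 and 726 against undamaged liver, and from 1495 and 1768 to 6006 and 1059 against regrown liver; those at 6 h against regrown liver went from 1096 and 992 to 405 and 1708. Some uncalled Hep-Org differences changed sign without 1 library. Nqo1 ranged from -0.52 to 1.06 against undamaged liver (-0.13 without undamaged replicate 2) and from -1.49 to 0.087 against regrown liver. Gclc ranged from -1.49 to 0.19 (0.16 without Hep-Org replicate 1) and from -1.60 to 0.026, and Txnrd1 from -0.0071 to 0.44 and from -0.15 to 0.30 (-0.026 without replicate 2 of 14 d). The cause was not tested. Values under about 1 FPKM rest on few reads.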
